A study of Rattus norvegicus with 3 samples.

Results

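The genes described here encode the voltage-gated calcium channels with their auxiliary subunits, the voltage-gated sodium channels, the Hcn pacemaker channels and the Trp channels of the C, M and V groups. Members were chosen by gene symbol, as all symbols that begin with Cacna, Cacnb, Cacng, Scn, Hcn, Trpc, Trpm or Trpv followed by a digit. This gave 62 of the 16629 genes and unnamed regions in the deposited tables, listed there as 68 entries. The symbol rule also takes in Trpc4ap, which encodes a protein associated with a Trp channel and not a channel itself.

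The animals were adult Sprague-Dawley rats on a cycle of 14 h light and 10 h dark, and 3 poly(A) RNA libraries were sequenced. The day pineal library was sampled at ZT7, where ZT counts hours from lights on, and the night pineal library at ZT19. The mixed-tissue library, also from ZT7, pooled RNA in equal amounts from 15 tissues. Among them were 6 from the central nervous system (spinal cord, hindbrain, midbrain, cerebellum, hypothalamus and cortex) and the retina. The others were adrenal gland, pituitary, skeletal muscle, heart, small intestine, kidney, lung and liver. Its values are averages over these tissues and do not give the level in any one of them. The labels do not say how many animals went into a library. Each group had 1 library, so there were no replicates and no test across animals: differences are described by their size alone, and no p-value was computed.

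The unit is FPKM, which scales fragments to transcript length and to library size, so levels can be compared between genes. Ratios are log2 ratios of FPKM + 1, a scale that understates the fold change of low values, and were computed where either library of a pair reached 1 FPKM. Folds given as numbers are ratios of FPKM itself. Calls of genes past 2-fold or 4-fold, and counts of them, use FPKM + 1. Ranges in parentheses are 95% exact Poisson bounds for 1 kb of transcript at the estimated depth of the library. They are wider than the counting error of a longer transcript and say nothing of differences between animals.

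Voltage-gated calcium channels open on depolarization and admit the calcium that drives vesicle release, gene expression and electrical activity. The pore is formed by an alpha1 subunit. L-type channels give long-lasting currents, T-type channels open at more negative potentials and close quickly, and P/Q, N and R-type channels are known from nerve terminals. Alpha2delta and beta subunits bring the pore to the membrane and tune its gating. Sodium channels carry the upstroke of action potentials, and Hcn channels pass an inward current on hyperpolarization that is tuned by cyclic nucleotides. Photoreceptors, relatives of the pinealocyte, use Cacna1f with Cacna2d4 at their ribbon synapses, and Trpm1 is the channel of retinal ON bipolar cells.

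In the pineal gland by day, 31 of the 62 members were below 1 FPKM and 8 were at 20 FPKM or more. Among these 8 were Hcn2, Cacna1f, Trpc4ap, Cacna2d4, Trpm1, Cacna1h and Cacna1d. Cacna1d, at 21.6 FPKM the lowest of them, ranked 2246 of 16629 genes and regions. The share of all genes at 20 FPKM or more was not counted. By night 35 were below 1 FPKM and 8 were at 20 or more. In the mixed tissues 9 members were below 1 FPKM. The other members, 31 by day, 27 by night and 53 in the mixed tissues, reached 1 FPKM. Of all 16629 genes and regions, 9581, 9392 and 11682 did. The median over the 62 members was 0.831 FPKM by day, 0.640 by night and 4.82 in the mixed tissues, while the median over all genes was 2.29, 2.00 and 4.86. Below 1 FPKM in all 3 libraries were Scn9a, Scn10a, Scn11a, Trpc7, Trpm5, Trpm8, Trpv1, Trpv3 and Trpv5. Another 22 members reached 1 FPKM in the mixed tissues but in neither pineal library.

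The labelled tissue was checked against marker genes. All 10 pinealocyte markers were at 1 FPKM or more in both pineal libraries, with a summed level of 7146 FPKM by day, 9355 by night and 638 in the mixed tissues. Of 6 neuronal markers found, 3 were at 1 FPKM or more in the gland. The synaptic genes Snap25 (1213 by day, 1217 by night and 417 in the mixed tissues) and Syt1 (105, 131 and 63.8) stood above the mixed tissues, and Map2 was at 17.3, 34.4 and 31.9. Tubb3 (0.725 by day, 0.483 by night) and the neurofilament genes Nefl (0.0688 by day, 0.144 by night) and Nefm (0.298 and 0.132) were below 1 FPKM there, against 108, 154 and 143 in the mixed tissues. The estimated depth of the night library was 59.9% of that of the day library. This estimate rests on 6 models, with a next step 1.48 times the first, against 1.99 and 2.02 in the other libraries. The night depth, and the night bounds and overlaps that use it, are therefore uncertain. Over all genes compared, the median log2 ratio was -0.11 for night against day, -0.27 for day against mixed tissues and -0.36 for night against mixed tissues, so values near these lie with the bulk of genes. As these are bulk samples, more cells of a type and more RNA per cell cannot be told apart.

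**Figure D1:**
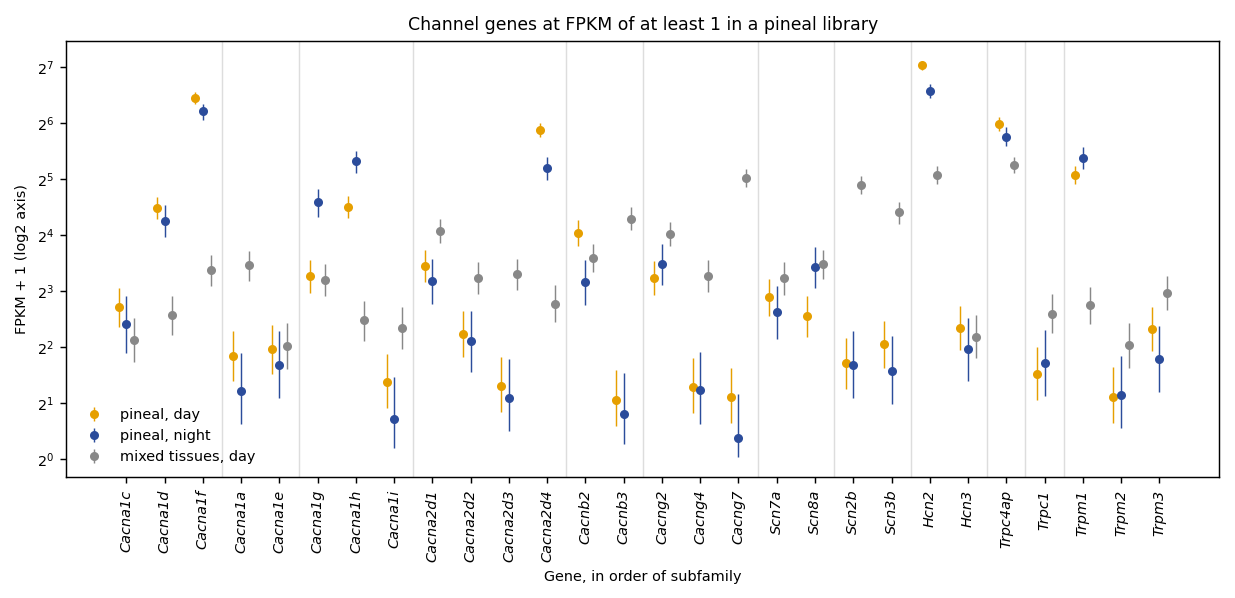
FPKM + 1 on a log2 axis for 28 of the 31 members at 1 FPKM or more in at least 1 pineal library, in order of subfamily, with 1 point per library and bars for the 95% counting bounds of 1 kb of transcript. By day Hcn2, Cacna1f and Cacna2d4 stand highest among the channel genes in the gland, each above its value in the mixed tissues.

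Promoter windows of RefSeq (build GRCr8, from 250 bases before to 50 after each gene's start) were matched for 44 of the 62 members, 48 windows in all. The 250 bases before the start are shown for Cacna1f and Trpm1, which passed 4-fold over the mixed tissues, and for Scn8a, which was higher by night. They are written 5′ to 3′ on the gene's strand, at chrX:17568309-17568558 (minus strand), chr1:127130436-127130685 (plus strand) and chr7:133860977-133861226 (plus strand) of GRCr8. Capitals mark CG pairs and, in Trpm1, the run GGATTA as well, a motif taken up again after the sequences.
Cacna1f: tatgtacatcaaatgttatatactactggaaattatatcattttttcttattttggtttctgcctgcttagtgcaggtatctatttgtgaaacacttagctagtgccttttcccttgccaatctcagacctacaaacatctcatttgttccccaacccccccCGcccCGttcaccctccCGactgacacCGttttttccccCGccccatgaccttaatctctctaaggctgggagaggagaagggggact
Trpm1: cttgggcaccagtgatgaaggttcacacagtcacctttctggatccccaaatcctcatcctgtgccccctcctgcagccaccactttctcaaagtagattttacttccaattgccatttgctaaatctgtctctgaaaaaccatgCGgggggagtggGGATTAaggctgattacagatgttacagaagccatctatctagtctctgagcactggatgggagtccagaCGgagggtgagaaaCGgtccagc
Scn8a: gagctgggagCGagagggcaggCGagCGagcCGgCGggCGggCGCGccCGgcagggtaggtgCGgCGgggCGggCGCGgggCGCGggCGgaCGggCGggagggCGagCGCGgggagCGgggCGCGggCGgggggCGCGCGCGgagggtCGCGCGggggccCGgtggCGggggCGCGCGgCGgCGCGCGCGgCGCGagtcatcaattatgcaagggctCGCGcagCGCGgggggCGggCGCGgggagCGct
The stretches differ in base composition: that of Scn8a holds 53 CG pairs and 86% G and C, that of Cacna1f 5 pairs and 45.6%, and that of Trpm1 3 pairs and 50%. Over the whole 300 bases, the median was 11 CG pairs in the 48 member windows and 7 in all 33469 windows.

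Motifs known from pineal and clock gene regulation were searched on both strands of the 300 bases. The Crx-type letters TAATCC, which read as GGATTA on the other strand, occurred in 1 of the 48 member windows, that of Trpm1, where the match begins 93 bases before the start, and in 7.17% of all windows. The cAMP response element (letters TGACGTCA) occurred in 0 of 48 and in 1.83% of all windows. The E-box CACGTG occurred in 1 of 48, that of Trpv3, and in 6.42% of all windows. The motifs do not overlap one another in these windows. A match is only a run of letters, and the lack of one says nothing about the factor.

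Among the pore-forming calcium channel genes, the L-type gene Cacna1f was the most abundant in both pineal libraries, followed by the T-type gene Cacna1h, whose bounds overlapped those of Cacna1d by day. Cacna1f (chrX:26908850-26937165, rn4) was at 86.7 FPKM by day (80.7 to 93.1), 73.1 by night (66.0 to 80.7) and 9.40 in the mixed tissues (7.57 to 11.5). Both pineal libraries were thus well above the mixed tissues, 9.22-fold by day and 7.78-fold by night, and they lay close together, with counting bounds that overlapped. It ranked 359 of 16629 genes and regions by day and 496 by night.

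Cacna1d (chr16:5383259-5703361), an L-type gene of endocrine cells, hair cells and the sinoatrial node, was at 21.6 FPKM by day, 18.1 by night and 4.94 in the mixed tissues. Cacna1c, the L-type gene of heart and smooth muscle, was at 5.58, 4.34 and 3.37. The order in the gland was thus Cacna1f, Cacna1d and Cacna1c by day and by night, with bounds that did not overlap between neighbours (18.6 to 24.8 for Cacna1d and 4.13 to 7.37 for Cacna1c by day). In the mixed tissues Cacna1d (3.64 to 6.55) and Cacna1c (2.32 to 4.74) overlapped in their bounds.

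The T-type genes were not alike. Cacna1g (chr10:83043636-83112886) was at 8.68 FPKM by day (6.85 to 10.9), 23.1 by night (19.2 to 27.6) and 8.22 in the mixed tissues (6.52 to 10.2). The night value was 2.66-fold the day value (log2 ratio 1.31), while the day value and that of the mixed tissues overlapped in their bounds. Cacna1h (chr10:14621372-14679051) was at 21.8 by day (18.8 to 25.1), 38.9 by night (33.8 to 44.6) and 4.58 in the mixed tissues (3.34 to 6.14). It was 1.79-fold higher by night (log2 0.81, under 2-fold), and 4.76-fold above the mixed tissues by day and 8.49-fold by night. Cacna1i, known from thalamic neurons, was low and pointed the other way, at 1.61, 0.654 and 4.11 FPKM, and its day and night bounds overlapped.

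Cacna1a, Cacna1b and Cacna1e, the P/Q, N and R-type genes of nerve terminals, were low in the gland. Cacna1a was at 2.60 FPKM by day, 1.34 by night and 10.0 in the mixed tissues, and Cacna1e at 2.90, 2.20 and 3.08. Cacna1b was at 0.0395 by day, listed at 0 by night and at 4.0 in the mixed tissues. Of these genes, Cacna1e was the one with overlapping bounds in the gland by day and the mixed tissues.

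Summed over the 9 pore-forming genes, the gland held 151 FPKM by day and 162 by night, against 51.7 in the mixed tissues. Within that sum the L-type genes made up 75.1% by day and 59.1% by night, and the T-type genes 21.2% and 38.7%. Cacna1f alone made up 57.2% by day and 45.2% by night, and Cacna1h 14.4% and 24.1%. The P/Q, N and R-type genes made up 3.66% by day and 2.19% by night. In the mixed tissues the 3 classes were nearly even, at 34.2% for L-type, 32.7% for T-type and 33.1% for P/Q, N and R-type. These shares have no replicate check.

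**Figure D2:**
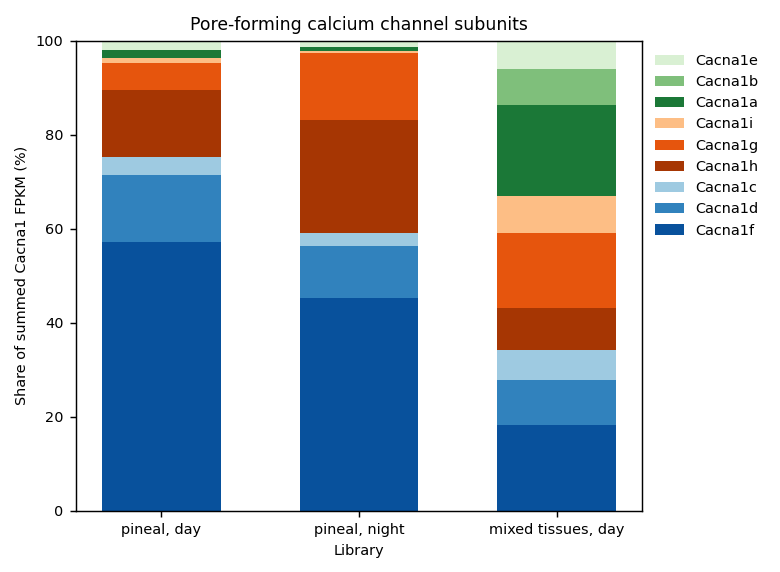
Share of the summed FPKM of the 9 Cacna1 genes held by each gene in each library, in percent, with L-type genes in blue, T-type genes in orange and brown, and P/Q, N and R-type genes in green. The T-type share is 21.2% in the day library and 38.7% in the night library.

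The auxiliary subunits were each dominated by 1 gene in the gland. Among the 4 alpha2delta genes it was Cacna2d4 (chr4:155546301-155658429), at 57.9 FPKM by day (53.0 to 63.1), 35.6 by night (30.7 to 41.1) and 5.88 in the mixed tissues (4.45 to 7.61). It made up 79.2% of the alpha2delta sum by day, 74.0% by night and 15.0% in the mixed tissues. The day value was 1.63-fold the night value (log2 -0.69, under 2-fold), and both were above the mixed tissues, 9.85-fold by day and 6.06-fold by night. The leucine-rich repeat gene Lrtm2 lies inside its span and was at 0.792, 1.01 and 4.80 FPKM. As the counting is not stated to use strand, reads of both genes cannot be told apart where they overlap.

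Cacna2d1, the most widely expressed alpha2delta gene, was at 9.97 FPKM by day, 8.08 by night and 15.9 in the mixed tissues, as a sum of 3 entries. Cacna2d2 was at 3.73, 3.30 and 8.47, and Cacna2d3 at 1.49, 1.14 and 8.86. Unlike Cacna2d4, these genes were lower in both pineal libraries than in the mixed tissues.

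Of the 4 beta genes, Cacnb2 (chr17:88853246-89078870), the beta subunit of heart and photoreceptors, was at 15.4 FPKM by day (12.9 to 18.2), 7.99 by night (5.76 to 10.8) and 11.1 in the mixed tissues (9.13 to 13.4). It was 1.93-fold higher by day than by night (log2 -0.87, under 2-fold), and the mixed tissues overlapped both pineal values in their bounds. Cacnb2 made up 88.4% of the beta sum by day and 81.0% by night. The other beta genes were near or below 1 FPKM in the gland, with Cacnb1, the beta subunit of skeletal muscle, at 0.479 by day and 0.424 by night against 10.1 in the mixed tissues, Cacnb3 at 1.09 and 0.752 against 18.7, and Cacnb4 at 0.458 and 0.701 against 11.6.

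The gamma genes include the muscle subunit Cacng1 and the TARP genes, whose proteins accompany AMPA-type glutamate receptors. Cacng2, the TARP stargazin, was the highest in the gland, at 8.43 FPKM by day, 10.2 by night and 15.3 in the mixed tissues. Cacng4 was at 1.45, 1.35 and 8.69, and Cacng7 at 1.16, 0.303 and 31.5. Cacng1, Cacng3, Cacng5, Cacng6 and Cacng8 were listed at 0 in both pineal libraries and at 8.57, 6.64, 2.70, 1.11 and 4.30 FPKM in the mixed tissues. Markers of skeletal muscle, where Cacng1 and the sodium channel gene Scn4a are known, were near 0 in the gland, where 0 of 5 reached 1 FPKM. Their sum was 0.299 by day and 0.991 by night against 3569 in the mixed tissues. Myh4 was listed at 0 in both pineal libraries. The part of tissue content in the values of the gamma genes and of Scn4a was not tested.

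Sodium channel genes were low in the gland. Scn8a (chr7:139686180-139794290), a channel of nodes of Ranvier and axon initial segments, was at 4.90 by day (3.55 to 6.60), 9.80 by night (7.31 to 12.9) and 10.2 in the mixed tissues (8.29 to 12.4). The night value was 2.00-fold the day value in FPKM (log2 0.87, under 2-fold on the FPKM + 1 scale) and overlapped that of the mixed tissues.

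Scn7a, a sodium-sensing relative found in glia, was at 6.46 FPKM by day, 5.22 by night and 8.40 in the mixed tissues, with bounds that overlapped between libraries. By day it stood above Scn8a and in the other libraries below it, with overlapping bounds in all 3. The principal sodium channel genes of brain, Scn1a and Scn2a1, were at 0.117 and 0.129 FPKM by day and 0.0529 and 0.101 by night, against 12.8 and 13.0 in the mixed tissues. Scn3a was at 0.376 by day, 0.626 by night and 2.39 in the mixed tissues, and Scn4a at 0.0241 by day, listed at 0 by night and 2.30 in the mixed tissues.

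The sodium channel beta genes Scn2b, Scn3b and Scn4b, whose proteins modulate gating and adhere to other cells, were at least 4-fold below the mixed tissues in both pineal libraries. Scn2b was at 2.28 FPKM by day, 2.23 by night and 28.9 in the mixed tissues, Scn3b at 3.15, 2.00 and 20.2, and Scn4b at 0.447, 0.186 and 22.1. Of the 6 neuronal markers, Nefl, Nefm and Tubb3 were also below the mixed tissues in both pineal libraries, while Snap25 and Syt1 were above them. Their part in the result was not tested.

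Hcn2 (chr7:11485257-11503614) was the highest channel gene of the gland and ranked 197 of all genes and regions by day. It was at 130.4 FPKM by day (123 to 138), 94.5 by night (86.4 to 103) and 32.8 in the mixed tissues (29.3 to 36.6). The day value was 1.38-fold the night value (log2 -0.46) and 3.98-fold that of the mixed tissues. Hcn3, of which less is known, was at 4.09 by day, 2.91 by night and 3.57 in the mixed tissues. Hcn4, the sinoatrial pacemaker channel, was at 0.101, 0.109 and 1.88. In all 3 libraries Hcn2 was above Hcn3 and Hcn3 above Hcn4.

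Of the 18 Trp channel genes, Trpm1 (chr1:118583516-118700653) stood apart in the gland. It was at 32.9 FPKM by day (29.2 to 36.9), 40.8 by night (35.5 to 46.6) and 5.74 in the mixed tissues (4.33 to 7.45), 5.73-fold above the mixed tissues by day and 7.11-fold by night. Its share of the summed Trp channel FPKM was 77.2% by day, 84.3% by night and 13.2% in the mixed tissues. The sum has 2 entries. The main one was at 30.1 FPKM by day, 32.1 at night, with the minor one at 2.78 and 8.71, so that the minor entry held 8.46% of the gene by day, 21.4% by night and 16.2% in the mixed tissues. Both entries have the same span.

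Trpm3, a heat and steroid-sensitive channel also known from choroid plexus, was at 4.02 FPKM by day, 2.45 by night and 6.87 in the mixed tissues. Trpm2, a channel gated by ADP-ribose, was at 1.16, 1.23 and 3.12, and Trpc1, a subunit of receptor-operated channels, at 1.87, 2.28 and 5.08. The remaining Trp channel genes were below 1 FPKM in both pineal libraries, among them Trpm4 (0.575, 0.218 and 3.73), Trpv2 (0.436, 0.227 and 4.25) and Trpv4 (0.181, 0.146 and 1.81). The whole Trpv group summed to 1.14 FPKM by day, 0.719 by night and 8.60 in the mixed tissues. Trpc4ap, which is not a channel, was at 62.4, 53.3 and 37.4.

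Between night and day, 31 members could be compared, and these had passed the filter through the gland. On the FPKM + 1 scale, Cacna1g was the 1 member at least 2-fold higher by night. By that scale 0 were at least 2-fold lower and 30 lay within 2-fold. The background over all 9826 genes and regions was 4.18% higher and 2.11% lower by that rule. The count of lower members was 2 with a pseudocount of 0.1. These were Cacna1i (1.61 FPKM by day, 0.654 by night) and Cacng7 (1.16 and 0.303). In FPKM itself they were 2.46-fold and 3.82-fold lower by night, with night and day bounds that overlapped. The night value of Cacng7 was under 0.567 FPKM, the floor of 3 fragments per kb, so its fold was not interpreted. Ratios were below 0 for 23 of the 31, with a median of -0.25 beside -0.11 for all genes. The sign of Cacng4 and Scn2b, with log2 ratios of -0.06 and -0.02, turned when ratios were centred on the median of all genes.

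Counting bounds did not overlap between night and day for 6 members. Higher by night were Cacna1g, Cacna1h and Scn8a, and lower by night were Cacna2d4, Cacnb2 and Hcn2. The same rule held for 8.38% of all genes on the higher side and 7.69% on the lower side, against 3 of 31 members on each. Relative to the median of all genes, the log2 ratios were 1.42 for Cacna1g, 0.92 for Cacna1h, 0.98 for Scn8a, -0.58 for Cacna2d4, -0.76 for Cacnb2 and -0.35 for Hcn2. Summed marker levels of glial, vascular and fibroblast lists also stood lower by night, while the neuronal sum stood higher (1336 FPKM by day, 1383 by night). Most of the neuronal sum was Snap25 (1213 and 1217). Syt1, Map2 and Nefl stood higher by night, and Tubb3 and Nefm lower. Nefl, Tubb3 and Nefm were below 1 FPKM in both. The lower sums were 242 FPKM by day and 180.5 by night for fibroblasts, 119 and 88.1 for astrocytes, and 60.4 and 50 for mural cells. Microglia had 34.1 and 26.7, endothelium 20.9 and 17.5, and oligodendrocytes with Schwann cells 14.5 and 10.1. Some single genes of these lists stood higher by night, among them Pecam1 (6.23 and 6.62), Cx3cr1 (3.30 and 3.73) and Pdgfra (13.6 and 14.0). No gene of these lists passed 2-fold on the FPKM + 1 scale. Their part in the ratios was not tested.

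**Figure D3:**
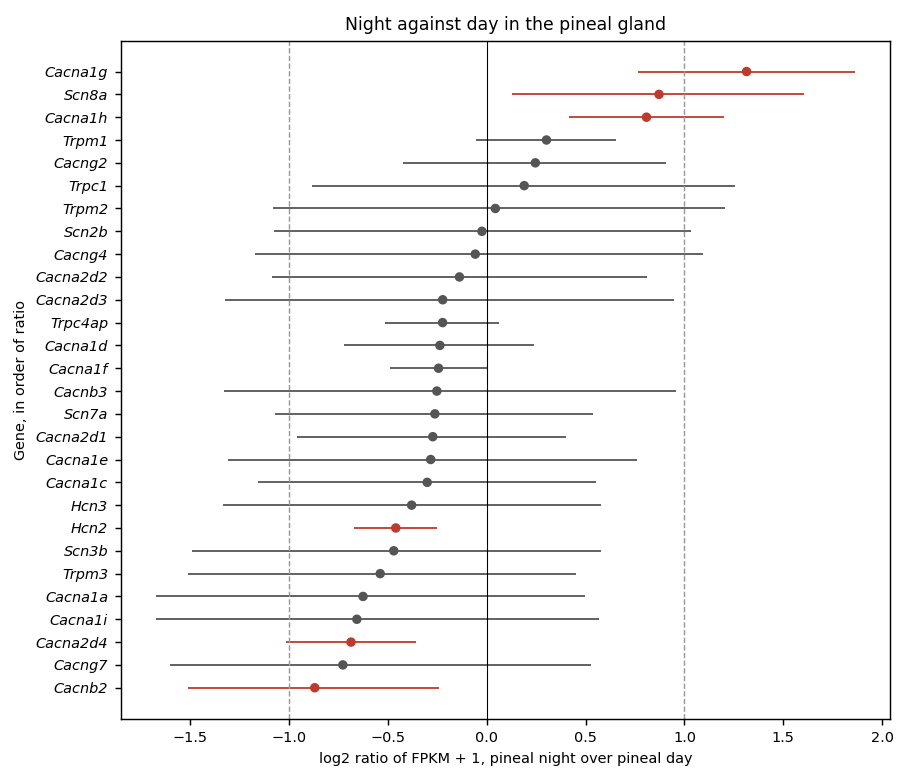
Log2 ratio of FPKM + 1, pineal night over pineal day, for 28 of the 31 members compared, with bars from the lower night bound over the upper day bound to the upper night bound over the lower day bound (95% counting bounds of 1 kb). Red marks the 6 members whose night and day bounds do not overlap, dashed lines mark 2-fold, and Cacna1g at 1.31 is the 1 point beyond them.

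Against the mixed tissues, 53 members could be compared. By day the gland was at least 4-fold above for 4 genes (Cacna1f, Cacna2d4, Trpm1 and Cacna1h) and at least 4-fold below for 15, beside 2.29% and 13.2% of the 11934 genes and regions compared. By night the same 4 genes were at least 4-fold higher and 19 members at least 4-fold lower, beside 3.09% and 14.4% of 11951. Both comparisons use the same mixed-tissue library. Counting bounds lay apart from those of the mixed tissues for 8 members on the higher and 34 on the lower side by day, beside 17.1% and 37.5% of all genes, and for 9 and 29 by night, beside 15.1% and 35.8%. The 8 included the 4 named, Hcn2, Cacna1d and Trpc4ap, and by night Cacna1g was added. Cacna1h (log2 2.03) was just past the 4-fold line by day, and Hcn2 (1.96) and Cacna1d (1.92) just short of it.

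The 15 lower by day included Cacna1b, Cacnb1, Cacnb3, Cacnb4, Cacng1, Cacng3, Cacng7, Cacng8, Scn1a, Scn2a1, Scn2b, Scn3b and Scn4b, and 3 of the 15 were listed at 0 in the gland. By night Cacna1a, Cacna2d3, Cacng4 and Trpv2 joined them. Genes of the alpha2delta, beta and gamma groups, TARP genes included, made up 7 of the 15, from 16 such genes compared. Among these 7, Cacnb1, Cacnb4, Cacng1, Cacng3 and Cacng8 were below 1 FPKM by day. Of the 53 members, 22 by day and 26 by night passed the filter only through the mixed tissues, so that their ratios had to be below 0. They make up 10 of the 15 lower by day and 13 of the 19 lower by night. These counts depend on the pseudocount: with 0.1 in place of 1, 28 members were at least 4-fold lower by day and 30 by night, beside 21.9% and 23.7% of all genes. With 5 there were 4 and 5, beside 4.37% and 4.63%.

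**Figure D4:**
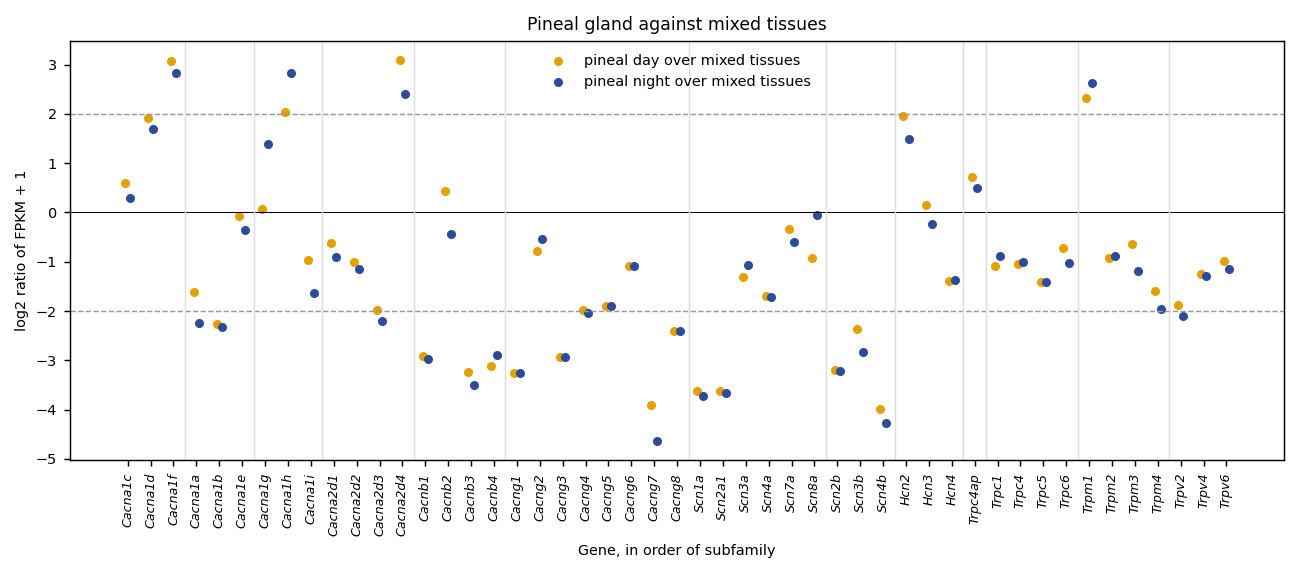
Log2 ratio of FPKM + 1 against the mixed tissues for 49 of the 53 members compared, in order of subfamily, with 1 point each for the pineal day and night libraries and dashed lines at 4-fold. Cacna1f, Cacna1h, Cacna2d4 and Trpm1 lie above the upper line in both, and Scn2b, Scn3b and Scn4b below the lower line.

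Genes that act with these channels were compared in the same way. Among 17 channel partners and regulators with a night over day ratio, 2 passed 2-fold upward, 1 downward and 14 neither (median log2 ratio 0.01). The background over all genes was 4.18% upward and 2.11% downward, and it applies to the next lists too. Gem, a small GTPase that inhibits voltage-gated calcium channels through their beta subunits, was at 23.7 FPKM by day (20.6 to 27.2), 207 by night (195 to 220.0) and 5.12 in the mixed tissues, 8.74-fold higher by night. Rem2, another GTPase of that family, was at 0.304, 1.82 and 2.42, with day and night bounds that overlapped (0.0551 to 0.939 and 0.860 to 3.39). Cabp4, a calcium-binding protein that modulates the Cacna1f channel in photoreceptors, was 4.06-fold lower by night, at 38.9 by day, 9.59 by night and 23.9 in the mixed tissues. Its relative Cabp1 (191, 216 and 32.6), the most abundant of the list by day, was within 2-fold. Nedd4l, a ubiquitin ligase known to act on sodium channels, was at 3.51, 1.36 and 10.3. It was just inside 2-fold on the FPKM + 1 scale (log2 -0.94) but 2.58-fold lower by night in FPKM itself. Its day and night bounds overlapped.

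In the list of calcium stores and store-operated entry, 2 of 12 genes passed 2-fold upward at night and 0 downward (median log2 ratio 0.14). They were Tpcn1, a channel of endosomes and lysosomes (12.3 FPKM by day, 37.1 by night and 18.3 in the mixed tissues, log2 1.52), and Itpr1, the inositol trisphosphate receptor that releases calcium from the endoplasmic reticulum (21.5, 57.9 and 31.8, log2 1.39). The store sensor gene Stim2 (25 by day and 36.9 by night) and the pore gene Orai1 (22.5 and 14.4) were within 2-fold. Of 13 genes for calcium extrusion and pumps, 1 was at least 2-fold higher by night, the plasma membrane pump Atp2b1 (11.2 by day, 24.5 by night and 38.6 in the mixed tissues, log2 1.06), and 12 were within 2-fold (median -0.02). The most abundant of that list by day were Atp2a2, a pump of the endoplasmic reticulum (44.9 and 67.3), the rod exchanger gene Slc24a1 (37.7 and 37.3) and Atp2c1, a Golgi pump (29.4 and 42.5).

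**Figure D5:**
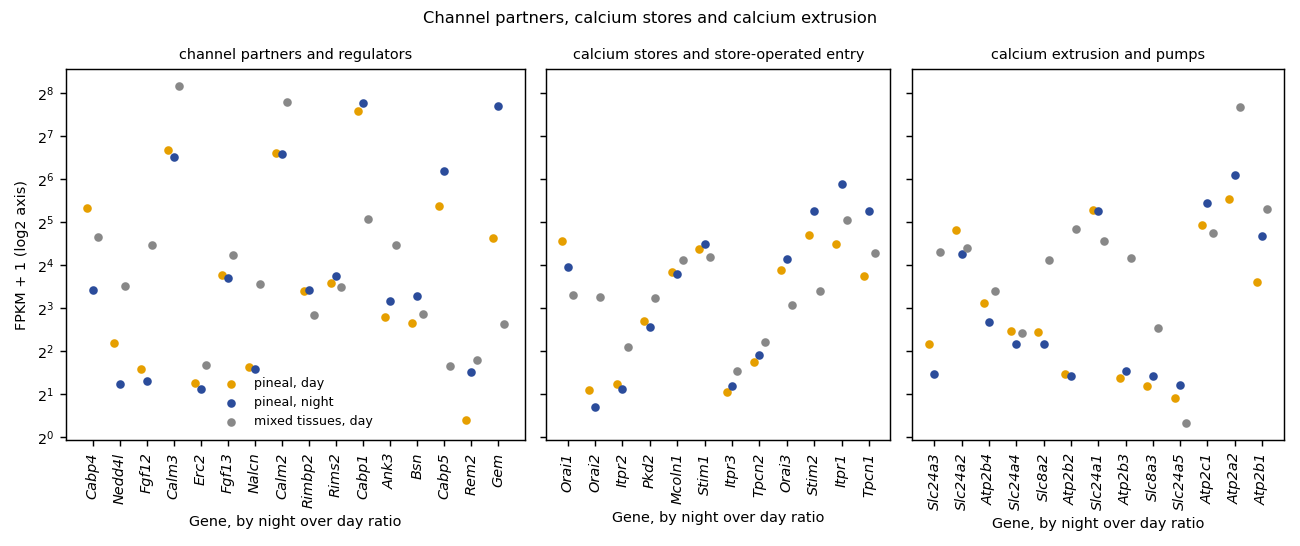
FPKM + 1 on a log2 axis in the 3 libraries for partner genes at 1 FPKM or more in at least 1 pineal library, in 3 lists, ordered by night over day ratio. Gem lies at the right end of the first list, with 23.7 FPKM by day and 207 by night, and Tpcn1 and Atp2b1 at the right ends of the others.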

How the data were processed

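The deposited values are FPKM, computed by the authors, per the file headers. TopHat 1.3.1, Cufflinks 1.2.0 and build rn4 are named, per the submitters' processing notes, without options or annotation. Per the labels' protocols, each poly(A) library was primed with random primers, amplified over 15 PCR cycles and sequenced in 1 lane as paired reads of 51 bases. The series table and the tables per sample were equal in 51267 of 51267 values. Entries of a symbol were summed. Coordinates are on rn4, with starts counted from 1. Scn2a1 is listed as Scn2a in the RefSeq table.

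Depth was estimated from 1378 receptor gene models with spans of 800 to 1100 bp, as the lowest repeated value of FPKM times length, found in 29 (day), 6 (night) and 28 (mixed) models. At 1 FPKM it corresponds to 8.83, 5.29 and 9.74 fragments per kb. The next step was 1.99, 1.48 and 2.02 times the first, so the night value is the least certain. The lowest step of the night library may not stand for 1 fragment. A floor of 3 fragments on 1 kb is 0.340, 0.567 and 0.308 FPKM. Bounds and floors cover counting error only.

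Calls were ratios past 2-fold (night against day) or 4-fold (against mixed tissues), with a pseudocount of 1 and a filter at 1 FPKM. Channel genes at 1 FPKM in at least 1 library could be named, and of the partner lists those past 2-fold, the 4 with the largest ratios and the 3 most abundant by day. Snap25, Nefl and the other markers named were picked from the marker lists after their values were seen. The members and lists were chosen with earlier results of these data known. Some members, markers and partners are not reported here by name. The calculations were tested on simulated data. The planted changes were larger than 2-fold and 4-fold and lay only in well expressed genes, so calls of members at low levels were not covered. Python 3.11.15, numpy 2.4.6, pandas 2.3.3 and scipy 1.17.1 were used.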

Additional observations from a re-analysis of the deposited data

How the results depend on the processing

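The counts of members past the fold were recomputed with a pseudocount of 0.1 or 5, without the filter, with a filter at FPKM 5, with ratios centred on the median of all genes, and with the highest entry in place of the sum. A call that also needs the counting bounds not to overlap was added after the data were seen. With a pseudocount of 0.1, members at least 2-fold lower by night became 2 in place of 0, and members at least 4-fold below the mixed tissues became 28 by day and 30 by night in place of 15 and 19. A pseudocount of 5 gave 4 and 5, and 2 in place of 4 members at least 4-fold higher by day (Cacna1f and Cacna2d4). By construction, a larger pseudocount draws low values together. The other 36 recomputed counts stayed within 1.5 times the reported one, and Cacna1g was the 1 member at least 2-fold higher by night under all 7 alternatives. No called member changed sign. The planned check against interval bounds of the authors was not run. No paired analysis was possible because each group has 1 library. At the estimated depth, members under about 0.340 FPKM by day or 0.567 by night are within 3 fragments per kb. A longer transcript holds more fragments at the same FPKM, and what could be detected was not computed by length. Differences among these members were therefore not interpreted.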

Other observations

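Pairs of members that follow each other on a chromosome were kept where the gap was under a set limit. Of these 15 pairs (rn4, gaps of 7.03 to 515.7 kb), 7 had both genes below 1 FPKM in both pineal libraries. Some genes stand in more than 1 pair. Among all 62 members, 31 were below 1 FPKM in both, but this counts single genes and not pairs. No background for pairs was computed. Some of the other pairs differed in level. Cacna1c ends 28.9 kb before Cacna2d4 on chromosome 4, with 5.58 and 57.9 FPKM by day. Scn3a, Scn2a1, Scn1a, Scn9a and Scn7a follow each other on chromosome 3. The first 4 were at 0.376, 0.129, 0.117 and 0.0103 FPKM by day, and Scn7a at the end of the row at 6.46, whereas Scn2a1 and Scn1a were at 13.0 and 12.8 in the mixed tissues. On chromosome 10 Cacng4 (1.45 by day, 1.35 by night) lies between Cacng1 and Cacng5, both listed at 0 in the gland. On chromosome 8 Scn2b (2.28 by day) and Scn4b (0.447) are 12.9 kb apart, with 28.9 and 22.1 FPKM in the mixed tissues.

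The microRNA genes Mir211 and Mir204 lie inside the spans of Trpm1 and Trpm3 and were listed at 0 in all 3 libraries. The span of Cacna1h overlaps that of Tpsg1 by 146 bp, and Tpsg1 was at 0.866 FPKM by day, 1.08 by night and 0.392 in the mixed tissues.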
